A study of Mus musculus with 12 samples.

Results

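Circular RNAs (circRNAs) made from 3 genes of protein kinases were followed in the blood of mice after focal brain ischemia. They are mmu_circRNA_000673 from Abl1 (probe ASCRP4008360), mmu_circRNA_000614 from Stk3 (probe ASCRP4007648) and mmu_circRNA_001219 from Tnik (probe ASCRP4008383). They are 3 of the 14236 circRNA probes of the array and belong to the 10678 probes bright enough to be tested. They were chosen by their measured difference in intensity between 24 h of occlusion and sham, which was at least 2 on the log2 scale, so the 24 h values below are a description without a test. Measured at 5 min and 3 h, the Abl1 circRNA was 3.88-fold above sham at 3 h, the Tnik circRNA was 3.25-fold below sham at 5 min, and the Stk3 circRNA passed no test at either time. Both of these differences use the sham arrays that also chose the circRNAs, so they are not independent of the choice. The group means of 3 h and 5 min share no array with the choice. Between them, the Abl1 circRNA differed by 1.60 (adjusted p = 0.0469 in limma) on the log2 scale. The Tnik circRNA differed by 0.44 (adjusted p = 0.536 in limma). The sham and 24 h arrays still entered the normalization and the estimate of spread behind these p-values. With only the 3 h and 5 min groups fitted, the adjusted p of Abl1 was 0.0752 in limma.

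Whole blood was drawn by cardiac puncture from male Balb/c mice, 3 in each of 4 groups, and hybridised to 12 one-colour arrays. In the treated mice, the middle cerebral artery was closed from inside the vessel with a coated filament under isoflurane (an occlusion abbreviated MCAO), and blood was taken after 5 min, after 3 h or after 24 h. The controls were sham-operated mice with the time label 0 h, so a single sham group served every duration and no sham was matched to the later times. The labels give an age of 8 weeks for all 12 mice, whereas the methods give an older range, and no genetic modification is named for any group. Before labelling, RNase R removed linear RNA, so an intensity stands for circRNA and says nothing of the kinase mRNA or protein.

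A circRNA forms when the splicing machinery joins the end of an exon back to an upstream start, which closes the RNA into a ring without free ends. Rings resist exonucleases and are abundant in brain and in blood cells, and their level does not need to follow that of the linear mRNA. Abl1 is a non-receptor tyrosine kinase that acts on the cytoskeleton and in the response to DNA damage. Stk3, also called MST2, is a STE20-group serine/threonine kinase at the top of the Hippo cascade, where it acts on the Lats kinases. Tnik is another STE20-group kinase, which binds Traf2 and Nck and takes part in Wnt/TCF4 and JNK signaling.

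All 3 rings lie inside their host genes (mm10 coordinates from the study's circRNA list, gene bounds from RefSeq on GRCm38.p6). The Abl1 circRNA is listed as exonic at chr2:31778333-31779216 on the plus strand. It spans 0.883 kb, or 0.743% of the gene's 119 kb. The Stk3 circRNA is listed as sense overlapping, meaning that it overlaps exons of the gene without matching them as an exonic ring does, at chr15:35088387-35115645 on the minus strand. It covers 27.3 kb, or 9.72% of the gene's 280 kb. The Tnik circRNA is exonic at chr3:28532887-28542098 on the plus strand, where it spans 9.21 kb or 2.25% of the gene's 409 kb. The sequences of the probes and of the joined ends were not used here.

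The arrays differed in brightness along with the groups. The circRNA probes of an array had a median raw intensity of 83 to 113 on the sham arrays, 50 to 69 on the 5 min arrays, 99.5 to 200 on the 3 h arrays and 160 to 221 on the 24 h arrays. By scan time and array position in the file headers, all sham and 5 min arrays and 3 h replicates 1 and 2 shared a slide (slide 1), and 3 h replicate 3 and all 24 h arrays shared another (slide 2). Negative control medians were 25 to 27 on slide 1, whereas slide 2 gave 83.5 to 101. Sham and 24 h thus shared no slide, and only 3 h replicate 3 tied the slides together. Values below are log2 intensities after background correction and quantile normalization unless called raw, and no probe's level is set against that of another. Every spot of the 3 circRNAs was well above background by the scanner software's call, and none was saturated.

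The Abl1 circRNA was low in sham and after 5 min, and higher at 3 h and 24 h. The sham arrays read 6.21, 6.11 and 6.20, the narrowest group of the 3 circRNAs, with a mean of 6.17 ± 0.05 (SD, n = 3). The 5 min arrays read 7.39, 5.94 and 6.26, and their mean was 6.53 ± 0.76 (SD, n = 3). Replicate 1 stood above every sham array, whereas replicate 2 lay below them all, so sham and 5 min overlapped. The 3 h arrays read 7.94, 8.43 and 8.01, with a mean of 8.13 ± 0.26 (SD, n = 3). All of them lay above all sham and all 5 min arrays. The 24 h arrays read 8.92, 8.47 and 7.97, with a mean of 8.45 ± 0.48 (SD, n = 3). They lay above all sham arrays and overlapped the 3 h arrays.

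Sham and 5 min were also below 3 h and 24 h before normalization. The raw medians of the Abl1 spot were 79.5, 92 and 105 in sham, and the 5 min arrays gave 79.5, 57 and 62.5. They were 356, 398 and 461.5 at 3 h, while the 24 h arrays gave 834, 385 and 304. Set against the brightness of the array itself, the background-subtracted Abl1 signal was 0.85 to 0.943 times the array's median circRNA signal in sham, 0.792 to 2.05 times at 5 min, 2.47 to 4.7 times at 3 h and 2.07 to 4.1 times at 24 h. Against the negative controls of the array, the raw Abl1 signal was 3.18 to 4.2 times as bright in sham, 13.2 and 14.7 times on the pair of 3 h arrays of slide 1, 5.53 times on 3 h replicate 3, and 3.1 to 9.37 times at 24 h. By this last measure 24 h overlapped sham, and the part of the brighter slide 2 controls in the result was not tested.

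The Stk3 circRNA had the highest level at 24 h, and 3 h lay between sham and 24 h. The sham arrays read 7.16, 7.27 and 7.49 (mean 7.31 ± 0.17, SD, n = 3). The 5 min arrays read 7.99, 6.96 and 7.28, with a mean of 7.41 ± 0.53 (SD, n = 3), and they lay on both sides of the sham arrays. The 3 h arrays read 8.38, 8.40 and 7.76 (mean 8.18 ± 0.37, SD, n = 3). They were all above sham, but replicate 3, the array on slide 2, fell below 5 min replicate 1. The 24 h arrays read 10.30, 10.11 and 8.93 (mean 9.78 ± 0.75, SD, n = 3), and every one of them lay above every array of the other groups. Replicate 3 of the 24 h group was more than 1 log2 unit below its companions.

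The raw Stk3 medians were 141, 191 and 253.5 in sham, and the 5 min arrays gave 103.5, 99 and 104. They were 487, 392 and 400.5 at 3 h, while the 24 h arrays gave 2156, 1147 and 525.5. Relative to the array's median circRNA signal, the Stk3 signal was 1.9 to 2.56 times as strong in sham, 1.6 to 2.93 times at 5 min, 2.14 to 4.78 times at 3 h, and 3.69 to 10.8 times at 24 h. On this plain scale, 3 h replicate 3 (2.14 times) lay within the range of the sham arrays, and 24 h replicate 3 (3.69 times) lay above sham but below 3 h replicates 1 and 2. Against the negative controls, the raw Stk3 signal was 5.64 to 10.1 times as bright in sham and 3.81 to 3.98 times at 5 min. It was 18 and 14.5 times as bright on the 3 h arrays of slide 1, 4.8 times on 3 h replicate 3, and 24.2, 11.4 and 5.36 times at 24 h. By that measure 3 h replicate 3 and 24 h replicate 3 were below every sham array.

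The Tnik circRNA ran the other way, with sham highest. The sham arrays read 12.39, 11.49 and 10.93, and with a mean of 11.60 ± 0.74 (SD, n = 3) sham was its most variable group. The 5 min arrays read 10.40, 9.44 and 9.87, with a mean of 9.90 ± 0.48 (SD, n = 3). The 3 h arrays read 10.21, 10.17 and 10.64, with a mean of 10.34 ± 0.26 (SD, n = 3). The 24 h arrays read 9.95, 9.38 and 9.40, with a mean of 9.58 ± 0.32 (SD, n = 3). All 9 MCAO arrays lay below all 3 sham arrays, although 3 h replicate 3 (10.64) came close to sham replicate 3 (10.93). Among the MCAO groups, 5 min overlapped both 3 h and 24 h, and all 24 h arrays were below all 3 h arrays.

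The raw medians of the Tnik spot were 3495, 3146 and 2749 in sham, and the 5 min arrays gave 453.5, 419.5 and 468. They were 1748.5, 1382 and 2023 at 3 h, while the 24 h arrays gave 1674, 695 and 724.5. The 5 min arrays were also the dimmest arrays. Relative to the array's median circRNA signal, the Tnik signal was 30.3 to 56.9 times as strong in sham, 8.28 to 15.2 times at 5 min, 11.3 to 17.8 times at 3 h, and 4.91 to 8.33 times at 24 h. Sham therefore stood apart from each MCAO group on this scale as well, and the lowest value passed from 5 min in the raw signal to 24 h.

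**Figure D1:**
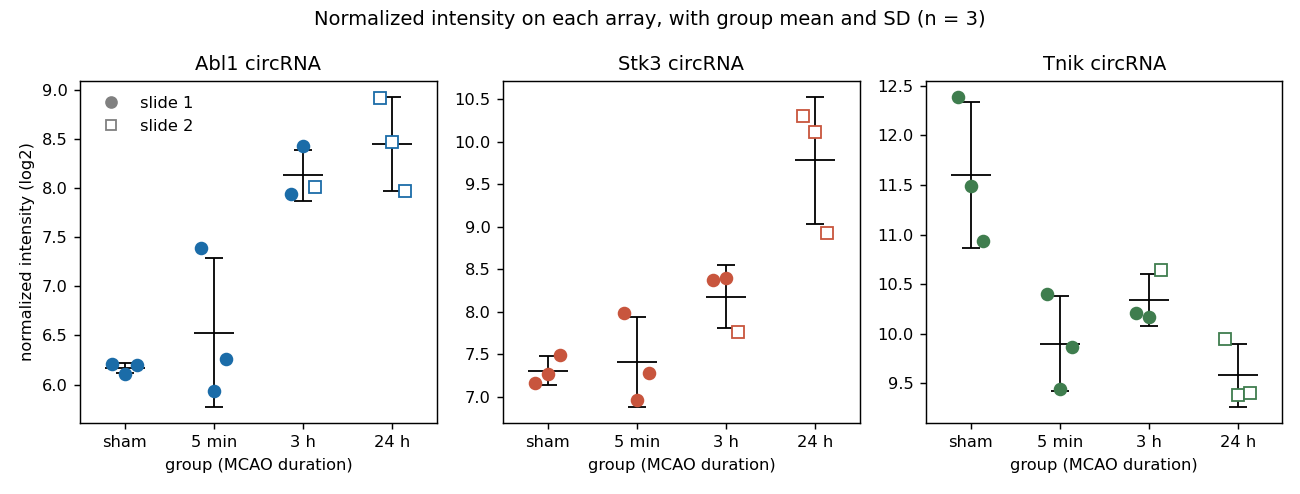
Normalized intensity (log2, vertical axis) of the circRNAs of Abl1, Stk3 and Tnik on each of the 12 arrays, by group (horizontal axis). Filled circles are arrays of slide 1 and open squares arrays of slide 2, bars give the group mean ± SD (n = 3), and each panel has its own vertical range. The Abl1 panel steps up between 5 min and 3 h, the Stk3 panel is highest at 24 h, and in the Tnik panel all MCAO arrays lie below sham.

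**Figure D2:**
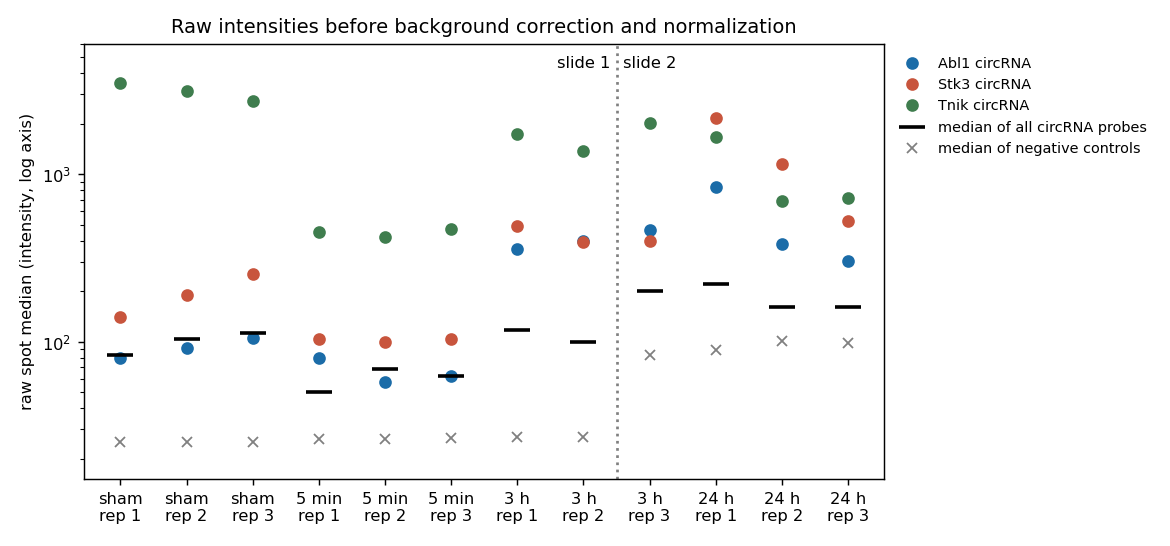
Raw spot medians of the 3 circRNAs (circles, log axis) on each array, with the median of all circRNA probes (bars) and of the negative controls (crosses). The dotted line parts slide 1 from slide 2, where the negative controls read 83.5 to 101 in place of 25 to 27.

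The first comparison asks what was different after 5 min of occlusion, before lasting brain damage. The Tnik circRNA fell by 1.70 on the log2 scale (SE 0.39, 95% interval -2.55 to -0.85), with an adjusted p of 0.0332 in limma. It was lower in 3 of 3 arrays than in every sham array. Of all probes tested, 3.55% were called lower at 5 min and 16% had all 5 min arrays below all sham arrays (23.4% had them above), while 2.72% had a larger change in either direction. The Abl1 circRNA differed by 0.36 (SE 0.37, interval -0.45 to 1.17, adjusted p = 0.558 in limma). The Stk3 circRNA differed by 0.10 (SE 0.39, interval -0.75 to 0.96, adjusted p = 0.886 in limma). These intervals still allow an Abl1 change of up to 1.17 and a Stk3 change of up to 0.96 on the log2 scale. Without 5 min replicate 1, the dimmest array of the 12, with 70.9% of circRNA probes well above background, both differences turned negative (Abl1 -0.07, Stk3 -0.19). That array had the highest normalized level of its group for all 3 circRNAs.

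The second comparison asks the same of 3 h, when the infarct begins to form. At this time, the Abl1 circRNA rose and the other two did not pass the test. The Abl1 circRNA was higher by 1.96 (SE 0.37, interval 1.15 to 2.76, adjusted p = 0.0107 in limma), and all 3 h arrays were above all sham arrays. Of the probes tested, 3.43% were called higher at 3 h and 13.7% had all 3 h arrays above sham, while 2.37% had a larger change. The Stk3 circRNA differed by 0.87 (SE 0.39, interval 0.02 to 1.73, adjusted p = 0.253 in limma), with all 3 h arrays above sham. The Tnik circRNA differed by -1.26 (SE 0.39, interval -2.11 to -0.42, adjusted p = 0.099 in limma), with all 3 h arrays below sham, as was the case for 17.2% of the probes. On the arrays of slide 1 alone, the Abl1 difference was 2.01 (adjusted p = 0.0127), that of Stk3 1.09 (adjusted p = 0.0642) and that of Tnik -1.41 (adjusted p = 0.082), each by limma. The 3 differences from sham share the 3 sham arrays, so neither the tests at 5 min and 3 h against sham nor their likeness to the 24 h difference are independent of the choice of the circRNAs.

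The group means compared between 3 h and 5 min come from none of the arrays that chose the 3 circRNAs. The sham and 24 h arrays still entered the normalization and the shared estimate of spread. The SE and adjusted p are therefore not fully independent of the choice. The Abl1 circRNA was higher at 3 h by 1.60 (SE 0.37, interval 0.79 to 2.40), or 3.02-fold, with an adjusted p of 0.0469 in limma. All 3 h arrays were above all 5 min arrays, which held for 13.6% of the probes (20.9% had them below), and 1.27% of the probes were called higher (0.805% lower). Replicate 3 of 3 h lay on slide 2 and all 5 min arrays on slide 1. The Abl1 call was lost when only the 3 h and 5 min groups were fitted (1.60, adjusted p = 0.0752 in limma). It was also lost with slide as a fixed term (1.65, adjusted p = 0.0694) and as a random block (1.61, adjusted p = 0.0509), each by limma. On slide 1 alone it held (1.65, adjusted p = 0.0426 in limma). Stk3 differed by 0.77 (SE 0.39, interval -0.08 to 1.62, adjusted p = 0.267 in limma), and Tnik by 0.44 (SE 0.39, interval -0.41 to 1.28, adjusted p = 0.536 in limma). Arrays of the compared groups overlapped for both. As these are bulk blood samples, fewer cells of a type and less RNA per cell cannot be told apart in any of these differences.

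At 24 h, where the values chose the members, the Abl1 circRNA stood 2.28 above sham (4.86-fold), the Stk3 circRNA 2.48 above (5.56-fold) and the Tnik circRNA 2.02 below (4.07-fold), all on the log2 scale. Over all probes, 14.1% were called higher and 17.7% lower at 24 h. All 24 h arrays lay above all sham arrays for 19.5% and below them for 24.9%, from which nothing is read about these 3. A larger change was seen in 5.34% of probes for Abl1, in 4.1% for Stk3 and in 7.58% for Tnik. At the limit of 2, the nearest called probes inside lay at 2.0001 and -2.0002 and the nearest outside at 1.999 and -1.9989, so Tnik was close to the limit. With slide as a term, which rests on 3 h replicate 3 alone, the Stk3 difference was 3.11. The slide and the 24 h group otherwise cannot be told apart.

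**Figure D3:**
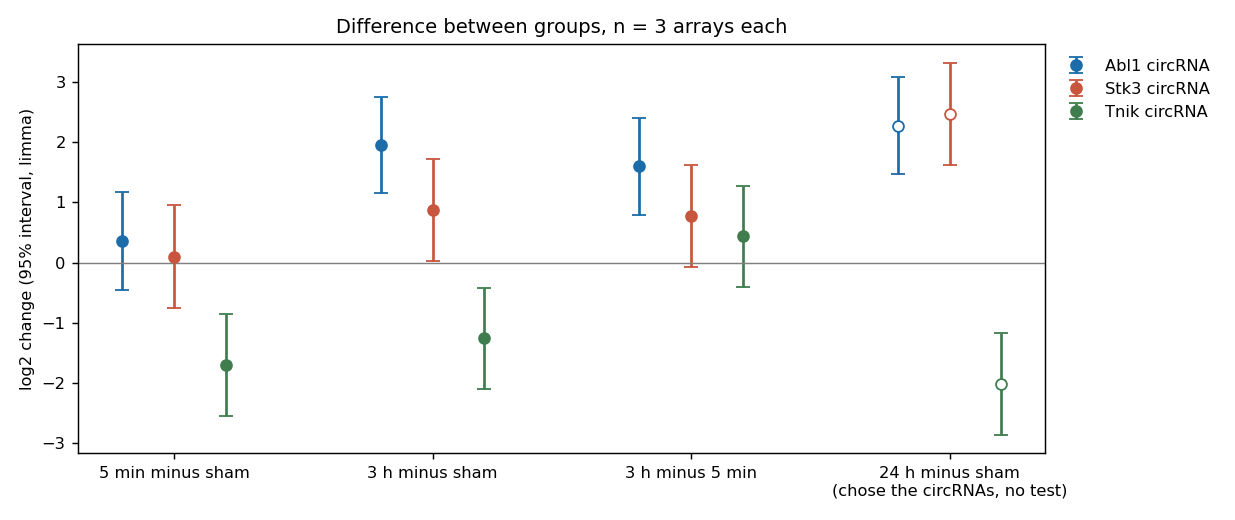
Difference between groups (log2, vertical axis) for each circRNA in 4 comparisons, with 95% intervals from limma and n = 3 arrays a group. Open points mark 24 h minus sham, which chose the circRNAs and has no test. Among the tested comparisons, the interval of Abl1 lies above 0 at 3 h against sham and against 5 min. That of Stk3 lies just above 0 at 3 h against sham (0.02 to 1.73), and that of Tnik lies below 0 at 5 min and 3 h against sham. The intervals are not adjusted for the number of probes. At 3 h against sham, Stk3 (adjusted p = 0.253 in limma) and Tnik (adjusted p = 0.099 in limma) did not pass the test.

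The calls depended on single arrays. With each of the 12 arrays left out in turn, the Abl1 difference at 3 h from sham stayed between 1.81 and 2.05, but its adjusted p passed 0.05 without sham replicate 2 (0.0616) and without 3 h replicate 2 (0.0727). The Tnik difference at 5 min stayed between -2.04 and -1.31. Its adjusted p was above 0.05 without sham replicate 2 (0.144), 5 min replicate 2 (0.072), 5 min replicate 3 (0.132), 3 h replicate 1 (0.0571) or 24 h replicate 2 (0.055). The Abl1 difference between 3 h and 5 min ranged from 1.30 to 2.03 and passed the test in 4 of 12 cases, with adjusted p from 0.0079 to 0.223. Leaving out 5 min replicate 1 gave its largest value, 2.03. Leaving out an array also changes how many probes pass over the whole table, which moves an adjusted p when the gene's own difference is the same.

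**Figure D4:**
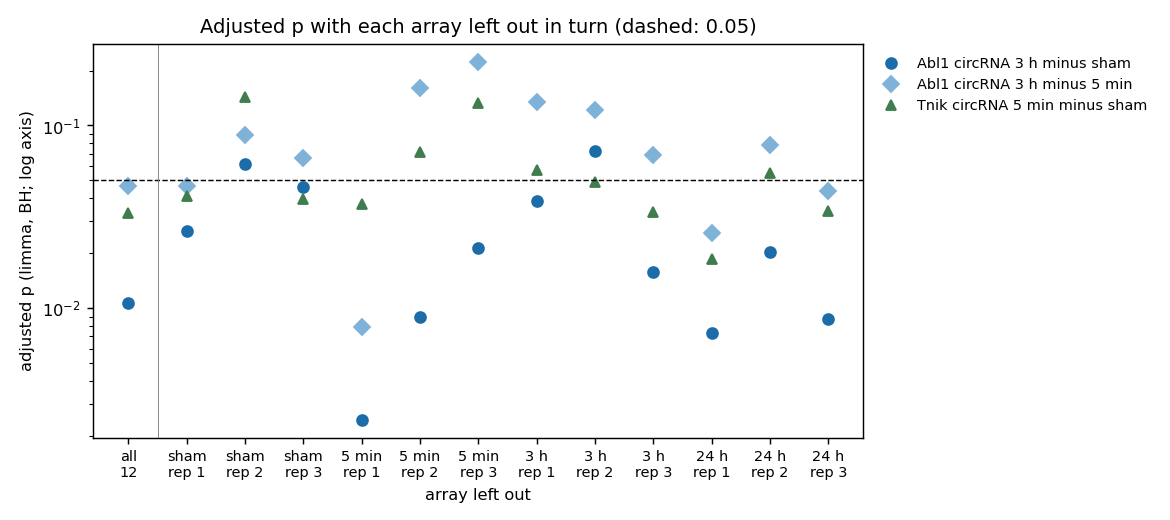
Adjusted p (limma, Benjamini-Hochberg, log axis) of the 3 differences called with all 12 arrays, when each array named on the horizontal axis is left out. The dashed line is 0.05. Points of the Abl1 difference at 3 h from sham cross the line in 2 of 12 cases, those of the Tnik difference at 5 min in 5 and those of the Abl1 difference between 3 h and 5 min in 8.

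The spread between replicates of the 3 circRNAs was that of an ordinary probe. Their residual SD was 0.47 for Abl1, 0.50 for Stk3 and 0.49 for Tnik, against a median of 0.43 over all probes tested. Over the 12 arrays, Abl1 and Stk3 had a Pearson r of 0.87, Abl1 and Tnik of -0.45, and Stk3 and Tnik of -0.50. After the group means were taken out, the values were 0.83, 0.51 and 0.19. These are descriptions, as the arrays share groups, slides and the normalization.

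By the same measure, the 3 probes most like the Abl1 circRNA included an intronic circRNA of Dlgap2, a scaffold protein of the postsynaptic density (mmu_circRNA_42581, r = 0.993), and an intronic circRNA of Gng2, a G protein subunit (mmu_circRNA_19110, r = 0.987). The Dlgap2 circRNA had group means of 6.24 in sham, 6.63 at 5 min, 8.45 at 3 h and 8.87 at 24 h. For the Stk3 circRNA they were circRNAs of Camsap1, a microtubule minus-end protein (mmu_circRNA_33184, r = 0.986), of Dab1, an adaptor of Reelin signaling (mmu_circRNA_37286, r = 0.985), and of Impact, a regulator of translation (mmu_circRNA_31339, r = 0.985). The Dab1 circRNA had means of 5.57, 6.33, 8.64 and 12.36 in the same order, a larger rise than that of Stk3. For the Tnik circRNA, the nearest probes were ASCRP4003347 (r = 0.967) and ASCRP4010109 (r = 0.965), which have no name here, and an exonic circRNA of the corepressor Ctbp2 (mmu_circRNA_002466, r = 0.964). The Ctbp2 circRNA fell from 8.31 in sham to 6.98, 7.23 and 6.25. All r values are over 12 arrays and were the highest of 10678 probes, and nothing follows from them about shared control.

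The array measures circRNAs, so the usual blood markers could not be checked as mRNA. Names are given here only for the 901 circRNAs listed by the study as changed at some time, and none of these comes from the 11 erythroid, 10 leukocyte, 5 platelet or 6 glial marker genes that were looked for. Among the neuronal marker genes, Rbfox1, which codes for a neuronal splicing factor, had 2 named intronic circRNAs. They were called higher at 3 h, by 2.28 (mmu_circRNA_017685, adjusted p = 0.0106 in limma) and by 1.97 (mmu_circRNA_29158, adjusted p = 0.0183 in limma), and so moved in the same direction as the Abl1 circRNA. At 5 min they differed from sham by 0.98 and 0.83, and neither was called. Their part in the Abl1 and Stk3 results was not tested, and both were listed on these same samples.

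Among the named circRNAs, 39 come from 33 of 489 protein kinase genes, and 31 of the 39 are exonic. Being listed on these samples, they are not independent evidence of a direction, and 33 of them were listed at 24 h. At 5 min, 2 were called higher and 11 lower, with a median change of -0.05. Over all tested probes, 1.71% were called higher and 3.55% lower (median 0.10), and of all 901 named circRNAs 27 and 131 (median 0.41). At 3 h, 8 were called higher and 1 lower, with a median of -0.50. Over all tested probes, 3.43% were called higher and 0.815% lower (median -0.12), and of all named circRNAs 284 and 41 (median 0.81), so the kinases called higher were a smaller share (20.5%) than of all named circRNAs (31.5%). This difference was not tested. From 5 min to 3 h, 7 were called higher and 1 lower, with a median of 0.65. Over all tested probes, 1.27% were called higher and 0.805% lower (median -0.11), and of all named circRNAs 90 and 19, with a median of 0.66, close to that of the kinases. No count is given for 24 h, as most of the 39 were listed there.

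The STE20 group, to which Stk3 and Tnik belong, had 5 named circRNAs from 30 genes, and the other 3 were those of Pak1, Stk24 and Taok3. Pak1, an effector of Rac and Cdc42, differed from sham by 0.39 at 5 min and 1.26 at 3 h and by 2.72 at 24 h (mmu_circRNA_41943), and its means of 5.13, 5.52, 6.38 and 7.84 climbed in the order seen for Stk3. Stk24, or MST3, differed by -0.05, -0.87 and -2.11 (mmu_circRNA_28060). Taok3, which can act upstream of the Hippo kinases, differed by -0.26, -1.08 and -2.45 (mmu_circRNA_39229). At 5 min the Tnik circRNA was the only 1 of the 5 to pass the test in limma. Of all named circRNAs 14.5% were called lower at that time, and of all tested probes 3.55%. At 3 h none of the 5 passed, although 4 of the 5 had an unadjusted p below 0.05. So had 647 of all 901 named circRNAs and 1998 of the 10678 tested probes, and nothing is read from these counts. The lowest adjusted p of the 5 at 3 h was 0.099. Tnik was thus the one with its largest step by 5 min, while the values of Pak1, Stk24 and Taok3 at that time were nearer to sham. Whether these courses differ was not tested.

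The tyrosine kinases, to which Abl1 belongs, had 9 named circRNAs. At 3 h, 3 of them were called higher and none lower, namely those of Abl1, of the ephrin receptor Epha5 (2.37, mmu_circRNA_38874, adjusted p = 0.00771 in limma) and of Ptk2b, a calcium-responsive kinase of the focal adhesion family (2.10, mmu_circRNA_27734, adjusted p = 0.00679 in limma). That share of 33.3% was near the 31.5% of all named circRNAs called higher at 3 h, and the Epha5 and Ptk2b circRNAs were themselves listed at 3 h. The Ptk2b circRNA had means of 7.72, 8.62, 9.82 and 11.82 and continued to climb to 24 h, where the Abl1 circRNA was close to its 3 h level. At 5 min, Epha4 (1.39, mmu_circRNA_20370) was called higher. A second circRNA of Epha5 (-2.45, mmu_circRNA_38889) and both circRNAs of Tec, a kinase of blood cells (-2.41, mmu_circRNA_38764 and -2.69, mmu_circRNA_38765), were called lower. These 3 have a name here only because the study listed them at 5 min, so their calls at that time are no separate evidence. The shares of 11.1% higher and 33.3% lower compare with 3% and 14.5% of all named circRNAs. Of all tested probes, 1.71% were called higher and 3.55% lower, and the difference was not tested. The first Epha5 circRNA differed by 0.91 at 5 min (adjusted p = 0.187 in limma).

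Of 42 genes of the Hippo pathway, 5 had a named circRNA: Stk3, Tnik, Taok3, Nf2 and Slmap. Slmap codes for a subunit of the STRIPAK complex, which acts on the Hippo kinases, and its circRNA (mmu_circRNA_27242) was the only 1 of the 5 called at 3 h, higher by 2.21 (adjusted p = 0.0183 in limma). At 5 min, only Tnik was called, and it was lower. Of all named circRNAs, 31.5% were called higher at 3 h and 14.5% lower at 5 min. Of all tested probes, the shares were 3.43% and 3.55%. From 5 min to 3 h, none of the 5 passed the test in limma, and 3 of them had an unadjusted p below 0.05. So had 492 of all 901 named circRNAs and 2382 of the 10678 tested probes. Few probes were called in this comparison (1.27% higher and 0.805% lower), and nothing is read from any of these Hippo counts.

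**Figure D5:**
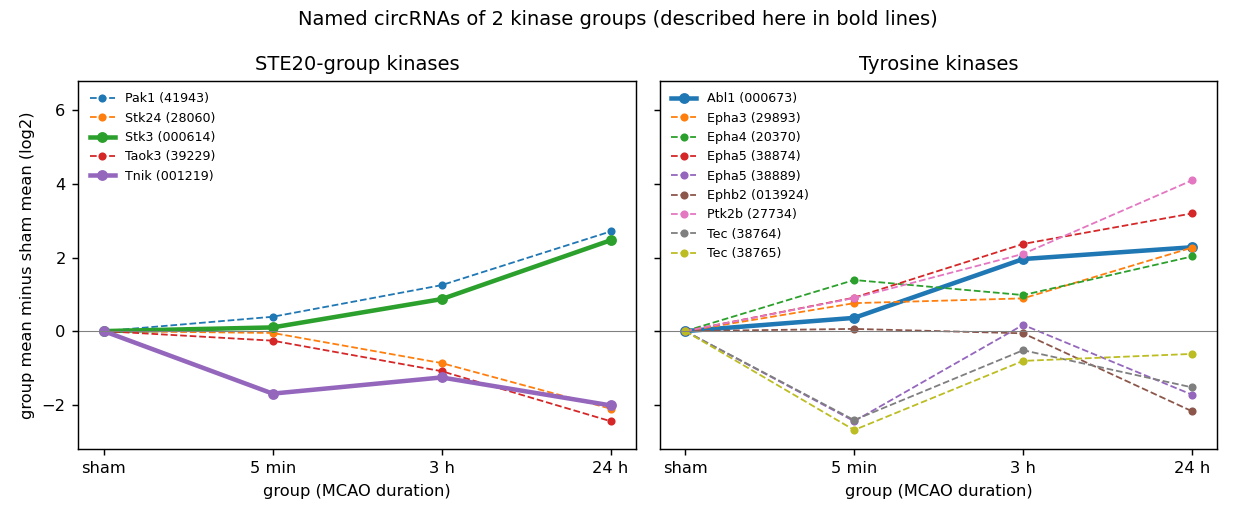
Group mean minus sham mean (log2, vertical axis) for the named circRNAs of STE20-group kinases (left, 5) and tyrosine kinases (right, 9), by group. Numbers in the key end the circRNA names. Solid bold lines are the circRNAs of Stk3, Tnik and Abl1 and dashed lines the others, all of which were listed on these samples. Tnik drops by 5 min, while Stk3 and Pak1 climb to 24 h, and Abl1, Ptk2b and 1 of the Epha5 circRNAs rise at 3 h.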

How the data were processed

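Whole-blood RNA of 12 male mice was measured on Arraystar Mouse circRNA Array v2 chips, 3 mice in each group, and groups were taken from the sample labels. For each array the authors deposited the scanner output, with spot intensity on a linear scale, made by Agilent Feature Extraction 11.0.1.1 according to the submitters' processing notes. The authors also deposited a table of quantile normalized log2 values, used here as an alternative.

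Background was removed from the spot medians by normexp with offset 0, using the local background, and all spots were then quantile normalized and put on the log2 scale with limma 3.58.1 in R 4.3.3. Quantile normalization gives every array the same distribution, so an overall change in circRNA content is not seen. The pixel median was used because the pixel mean planned for is not among the columns used here. A circRNA probe was tested if it reached 1.1 times the 95th percentile of the 77 negative control spots on all 12 arrays, which left 10678 of 14236 (75%). Outlier spots were then set to missing. The number of arrays limits the precision.

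The 4 groups were fitted in 1 limma model with a mean-variance trend (8 residual and 5.05 prior degrees of freedom). All tests were two-sided, and p-values were adjusted by Benjamini-Hochberg for each comparison. An adjusted p up to 0.05 was called. With 3 arrays against 3, an exact permutation test of a single value cannot go below 0.1, so none is given. The script was tested on simulated data.

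The files hold probe numbers only. Names come from the study's list of changed circRNAs, whose columns of the authors' own comparisons served only to match names. A circRNA took the name of the only probe equal to it in mean and change (largest difference 0.000499, next nearest probe 0.008), which named 901 of 903. Build and classes follow that list, and its start base convention is not given in the sources used here. The members, kinase lists and tests were chosen with earlier results of these data known. The text names the 3 members, the 3 probes most correlated with each, and every named STE20-group circRNA (results for some genes are not reported here); tyrosine kinases, Hippo genes and neuronal markers named beyond these were chosen after their values were seen. Alternatives were no background subtraction, an offset of 50, cyclic loess, the processed signal scaled to its 75th percentile, the log2 table, other probe filters, fits of fewer groups or 1 slide, slide or replicate terms, and each array left out.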

Additional observations from a re-analysis of the deposited data

Results flagged for a closer look

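The change of the Abl1 circRNA from sham differed between durations of occlusion. The 3 h change exceeded the 5 min change by 1.60 on the log2 scale (adjusted p = 0.0469 in limma), and was higher in 3 of 3 arrays against every 5 min array. As both changes use the same sham mean, this is the difference between the 3 h and 5 min arrays. The call was lost in 5 of 12 other settings and in 8 of 12 fits with an array left out.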

How the results depend on the processing

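Across 12 other settings, the Abl1 difference at 3 h from sham kept its direction and its call (1.44 to 2.18), and so did the Tnik difference at 5 min (-1.70 to -1.57) except when only sham and 5 min were fitted (-1.70, adjusted p = 0.0522). The Abl1 difference between 3 h and 5 min lost its call with the processed signal (1.71, adjusted p = 0.0554), without a probe filter (1.60, 0.0606), with only those 2 groups fitted (1.60, 0.0752), with slide as a fixed term (1.65, 0.0694) and with slide as a random block (1.61, 0.0509). The Abl1 difference at 24 h was 1.79 without background subtraction and 1.72 with an offset of 50. These values lie under the limit of 2 that chose the circRNAs. Tnik at 24 h was also under this limit in size with cyclic loess (-1.74) and the processed signal (-1.80). It was -1.96 without background subtraction and -1.96 with an offset of 50. Over the 11 other settings at 24 h, Abl1 ranged from 1.72 to 2.48 and Tnik from -2.47 to -1.74. Stk3 stayed above the limit (2.17 to 3.11), with 3.11 when slide was a fixed term. No alternative made a call of Stk3 or Tnik at 3 h, and the cause of these shifts was not tested. In the slide-term fits the sham and 24 h arrays are joined only through 3 h replicate 3, and the correlation within slides was 0.18.

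With each array left out, the Abl1 difference lay between -0.07 and 0.65 for 5 min, between 1.81 and 2.05 for 3 h and between 1.30 and 2.03 for 3 h against 5 min. At 5 min, that of Stk3 lay between -0.19 and 0.33 and that of Tnik between -2.04 and -1.31; both values of 5 min below 0 (Abl1 -0.07, Stk3 -0.19) came without 5 min replicate 1.

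Counts of called probes moved more. At 5 min, 562 became 873 with cyclic loess, 926 with the processed signal (402 higher), 2036 on slide 1 alone (1027 higher), and 1 to 1419 with an array left out. At 3 h, 453 became 951 on slide 1 alone and 99 to 741 with an array left out. Between 5 min and 3 h, 222 became 142 without a filter, 50 with 2 groups, 603 on slide 1 alone and 4 to 711 with an array left out. At 24 h, 3398 became 764 with slide as a fixed term (691 higher), 1996 with slide as a random block (1098 higher) and 2170 to 3753 with an array left out. The processed signal moved the median 24 h change of all probes from -0.18 to 0.07.

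Same-numbered arrays did not deviate together (correlation over 0.1 in 6 of 18 pairs), so the replicate numbers were not used as pairs. With the replicate block, Abl1 differed by 1.96 at 3 h (adjusted p = 0.00986) and by 1.60 from 5 min to 3 h (0.0429), Tnik by -1.70 at 5 min (0.0245), and the counts called were 596, 471, 278 and 3457 at 5 min, 3 h, 3 h against 5 min and 24 h. It changed no call of the 3 circRNAs.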
